A study of Mus musculus with 2 samples.

Results

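The cells described here are islet δ cells, taken as the barcodes in which the somatostatin gene (Sst) led over every other islet hormone. They were 330 of the 8897 barcodes kept from 2 libraries of mouse islet cells, 189 of 4628 in the WT library and 141 of 4269 in the Npc1-/- library. A barcode was kept with more than 1000 genes, fewer than 50000 unique molecular identifiers (UMIs, each one captured mRNA molecule), a mitochondrial share under 10% and no more than 0.1% of haemoglobin transcripts. The δ cells were chosen by their hormone counts. A barcode was one when Sst took at least 10% of its UMIs and more than insulin (Ins1 and Ins2), glucagon (Gcg) or the pancreatic polypeptide and peptide YY genes (Ppy and Pyy) together, with insulin under 10%.

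Both libraries were made by droplet-based single cell RNA sequencing of islets pooled from 3 female mice aged 2 weeks. The WT mice and the Npc1-/- mice were on a C57BL/6J background, and knockouts and wild type littermates were bred by mating heterozygotes. The knockout was global, so that Npc1 was lost in every tissue of the mouse and not in δ cells alone. There was 1 library per genotype, which leaves no replicate check and no p-value for any difference given here, and all 95% intervals cover counting error only. They leave out the spread between cells and between mice, so for abundant genes they are too narrow.

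δ cells are a minority of islet endocrine cells. The somatostatin that they release acts on neighbouring β and α cells through inhibitory receptors and restrains the secretion of insulin and glucagon, and their secretion answers to glucose, ghrelin and local peptides. NPC1 is a membrane protein of late endosomes and lysosomes that hands cholesterol taken up with lipoproteins on to the rest of the cell. Cells that sense little cholesterol in the endoplasmic reticulum (ER) activate SREBP2, the transcription factor that drives genes of cholesterol synthesis and uptake.

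The WT library held 114324626 UMIs in 8569 barcodes and the Npc1-/- library 127122035 UMIs in 7646 barcodes. The δ cells contributed 2714984 and 2431960 of these. The median δ cell had 14444 UMIs and 3670 genes in WT and 15814 UMIs and 3914 genes in Npc1-/-, so the Npc1-/- cells were read slightly deeper. Mitochondrial UMIs were a median of 3.49% in WT and 3.78% in Npc1-/-. The libraries shared 12 barcode sequences, of which 3 were kept in both and 0 were δ cells.

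Npc1 itself was counted first, as the check of the labels. Over all kept barcodes there were 790 Npc1 UMIs in WT and 391 in Npc1-/-, or 14.6 (13.6 to 15.7) and 6.97 (6.29 to 7.69) CPM (counts per 1000000 UMIs other than those of the 6 hormone genes). The δ cells held 28 and 13 of these UMIs, at 14.7 and 7.63 CPM. The Npc1-/- library thus carried less Npc1 mRNA, in the direction of its label, but the transcript was still counted there. For every gene the UMIs of a class were added up and scaled in this way, so that a cell's hormone share does not set the level of its other genes. Reads came from the 3′ end of transcripts, so these levels are not divided by gene length.

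Somatostatin was the leading transcript by the rule, and its level is a description only. Sst (chromosome 16, 23889573 to 23890958, minus strand, GRCm38) took a median of 17.3% of UMIs in WT, with a range from 10.0% to 28.1%. In Npc1-/- the median was 16.4%, with a range from 10.3% to 31.9%. The libraries overlapped over nearly their whole range. The weakest accepted cell had 10.0% Sst in WT and 10.3% in Npc1-/-, and the strongest Sst-led barcode just outside the limit had 9.87% and 9.30%. In all, 13 WT and 12 Npc1-/- barcodes were led by Sst but stayed under the limit. The 250 bases before the RefSeq start of Sst (GRCm38.p6, chr16:23890845-23891094, minus strand) are shown because they hold the palindrome TGACGTCA, the cAMP response element through which CREB is known to act on this gene. It is in capitals and begins 48 bases before the start.
Sst: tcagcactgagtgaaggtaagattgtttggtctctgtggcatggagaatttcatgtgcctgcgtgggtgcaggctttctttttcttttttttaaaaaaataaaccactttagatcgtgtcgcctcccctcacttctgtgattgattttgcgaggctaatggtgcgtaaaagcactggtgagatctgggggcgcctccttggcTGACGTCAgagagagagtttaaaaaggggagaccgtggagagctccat
TGACGTCA, which reads the same on both strands, was present in 1.62% of the 27025 RefSeq promoters of this length and in 3.11% of the 7554 that belong to genes measured in δ cells. It was found in 0 of the 9 promoters available for the 15 most δ-enriched genes named further on.

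By its median, peptide YY was the second hormone of the δ cells. Pyy took a median of 7.89% of UMIs in WT, from 1.44% to 16.9%, and 9.08% in Npc1-/-, from 3.38% to 20.2%. Pancreatic polypeptide was more uneven. The middle 50% of cells spanned 0.338% to 4.40% Ppy in WT and 0.320% to 4.02% in Npc1-/-. Gcg was a median of 0.0797% and 0.0638%. Insulin was a median of 1.24% of UMIs in WT and 0.778% in Npc1-/-. Summed over δ cells, Ins2 took 0.918% and 0.576% of UMIs. The endothelial-like cells, which should make none, held Ins2 at 1.20% and 0.658%, with median depths of 7837 and 10285 UMIs. Insulin in δ cells was thus at or below this background of free RNA and is not read as expression or as a difference.

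**Figure D1:**
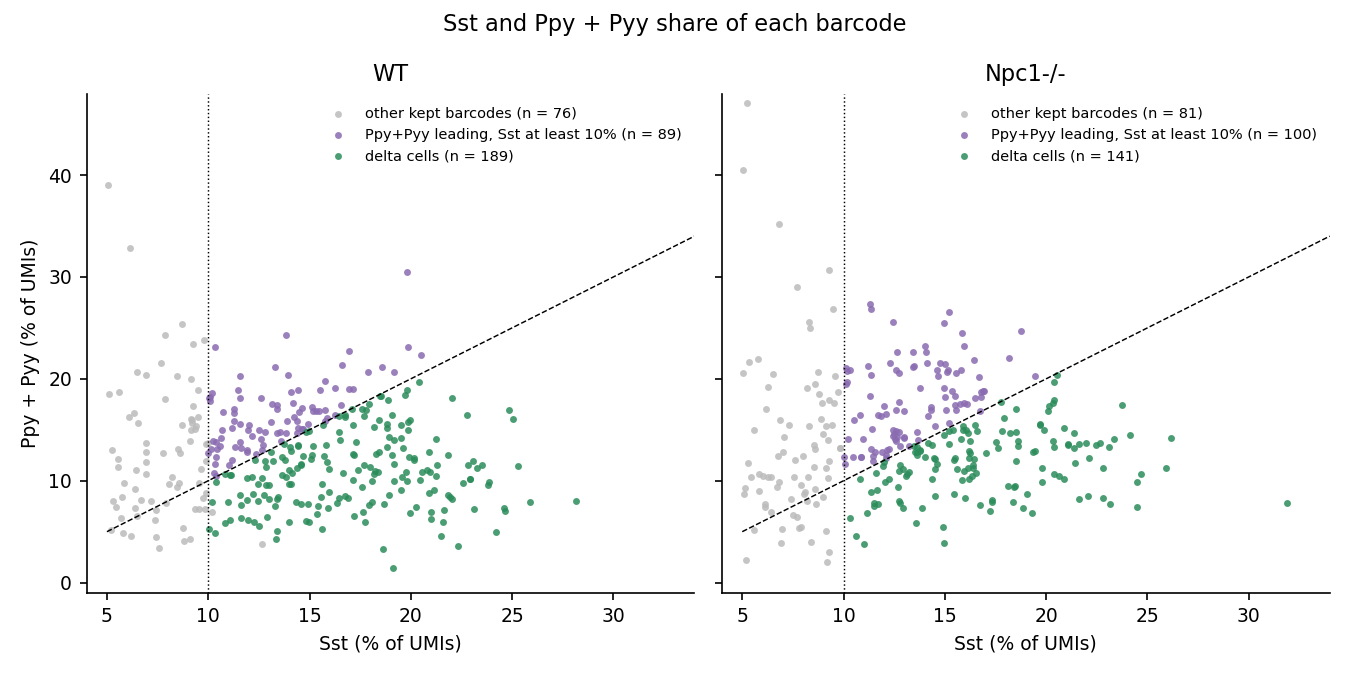
Each point is a barcode with at least 5% Sst, placed by its Sst share (x axis, % of UMIs) and its Ppy + Pyy share (y axis, % of UMIs), WT left and Npc1-/- right. Green points are δ cells, purple points have at least 10% Sst but more Ppy + Pyy, and grey points are other kept barcodes. The dashed line marks equal shares and the dotted line 10% Sst. Green and purple points form a continuous cloud across the dashed line in both libraries.

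The border with the Ppy and Pyy cells was therefore not a gap. A further 89 WT and 100 Npc1-/- barcodes had at least 10% Sst but still more Ppy and Pyy. Their median Sst share was 13.1% in WT and 13.0% in Npc1-/-, beside 16.2% and 17.6% of Ppy and Pyy together. The δ gene Hhex stood at 530 CPM and 452 CPM in them, close to the 567 CPM and 490 CPM of the δ cells, and Ly6h at 1086 CPM and 725 CPM against 1030 CPM and 698 CPM. Sst led in 67.5% (61.7 to 73.0) of all Sst-rich barcodes in WT and in 58.5% (52.0 to 64.8) in Npc1-/-. Nearly all of the Sst-rich barcodes led by Ppy and Pyy belong to the Ppy and Pyy class in all comparisons unless stated otherwise. They therefore raise the δ genes in that class. The class held 407 WT and 430 Npc1-/- barcodes, and 319 and 330 without the Sst-rich ones.

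δ cells were 4.08% (3.53 to 4.69) of kept barcodes in WT and 3.30% (2.79 to 3.88) in Npc1-/-, a ratio of 0.809 (0.646 to 1.01). Among barcodes rich in any hormone the shares were 5.43% and 4.32%, a ratio of 0.795 (0.635 to 0.994). When every barcode with at least 10% Sst was taken, whichever hormone led, the numbers were 280 and 241, and the ratio of the shares of kept barcodes was 0.933. Shares of cells depend on how islets were dissociated and captured, and their part in this ratio was not tested.

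The marker genes of the label were all present. Rbp4, the plasma retinol carrier, led with 10563 CPM in WT against 8331 CPM in Npc1-/-, and lay at 897 CPM in WT insulin cells and 1488 CPM in WT glucagon cells. Fam159b stood at 1432 CPM and 1394 CPM against 96.8 CPM in WT insulin cells. Hhex, the homeobox factor required for δ cell identity, stood at 567 CPM and 490 CPM against 10.2 CPM. Each of these was far lower in the insulin class in both libraries. Ly6h, a GPI-anchored surface protein, had 1030 CPM and 698 CPM against 19.7 CPM in WT insulin cells. Ghsr, the ghrelin receptor, was low at 38.5 CPM and 35.2 CPM, but lower still in WT insulin cells at 0.564 CPM. The label therefore fits the cells, and since the same counts chose the cells by their hormones no test accompanies these levels.

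Counted cell by cell, with every barcode reduced to 5000 UMIs, Hhex was seen in 80.1% (73.6 to 85.7) of WT and 78.4% (70.6 to 84.9) of Npc1-/- δ cells, and in 1.51% and 1.26% of insulin cells. Without the reduction Hhex was seen in 94.2% and 97.2% of δ cells at the median depths above, and in 3.91% and 3.57% of insulin cells at median depths of 30316 and 30089 UMIs. Ly6h was seen in 87.6% (81.9 to 92.0) of WT and 75% (66.9 to 81.9) of Npc1-/- δ cells at 5000 UMIs, against 2.13% and 1.51% of insulin cells. Without the reduction Ly6h was seen in 94.2% and 90.1% of δ cells, and in 4.07% and 3.45% of insulin cells. Ghsr was seen in 12.5% and 11.1% of δ cells at 5000 UMIs, against 0.101% and 0.126%, and in 30.7% and 34.8% without the reduction, against 0.725% and 0.792%. The reduction left out 8 of the 189 WT and 2 of the 141 Npc1-/- δ cells as too shallow.

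Beyond the label, 74 of the 6505 genes with at least 20 CPM in δ cells of both libraries were at least 2-fold above the highest of the insulin, glucagon and Ppy and Pyy classes in both, which is 1.14%. With the Sst-rich barcodes left out of the Ppy and Pyy class the number was 124, or 1.91%, and 73 genes were in both sets. The 15 with the highest ratio in the lower library included 3 transcription factors. Neurog3, the factor that commits progenitors to the endocrine lineage, had 115 CPM in WT δ cells and 125 CPM in Npc1-/- δ cells, and 33.7 CPM and 42.8 CPM in the Ppy and Pyy class. It was seen in 32.7% and 32.0% of δ cells at 5000 UMIs, against 1.10% and 1.93% of insulin cells, and in 61.9% and 58.9% without the reduction, against 4.24% and 7.53%. Ehf, an epithelial ETS factor, stood at 202 CPM and 173 CPM, with 64.1 CPM and 51.8 CPM in the Ppy and Pyy class. Hhex was the third.

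Several of these genes encode surface or secreted proteins. Cd24a, a GPI-anchored sialoglycoprotein, stood at 826 CPM and 757 CPM in δ cells, and at 26.4 CPM and 37.9 CPM in insulin cells. Ptprz1, a receptor tyrosine phosphatase, stood at 139 CPM and 120 CPM. Ncam2, a neural adhesion molecule, stood at 50.6 CPM and 51.6 CPM. Dpp6, an auxiliary subunit of Kv4 potassium channels, stood at 129 CPM and 107 CPM. In insulin cells the levels of the last 3 lay between 1.26 CPM for Ncam2 in Npc1-/- and 2.82 CPM for Dpp6 in WT. Bmp3, a secreted member of the TGF-β family, stood at 76.4 CPM and 61.6 CPM.

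The other members of the 15 were intracellular or are of unknown role. Ppp1r17, an inhibitor of protein phosphatases known from cerebellar Purkinje cells, stood at 119 CPM and 103 CPM, but only 28.0% of WT and 33.3% of Npc1-/- δ cells held a UMI of it. Car8, a carbonic anhydrase-related protein of the same neurons, stood at 263 CPM and 180 CPM. Mest, an imprinted gene, stood at 225 CPM and 160 CPM. Acot7, an acyl-CoA thioesterase, stood at 75.9 CPM and 30.5 CPM. Tmem154 and the unnamed gene Gm45623 were at 22.1 CPM and 30.6 CPM in WT, and at 22.9 CPM and 32.3 CPM in Npc1-/-. The remaining gene, Ly6h, is described above.

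**Figure D2:**
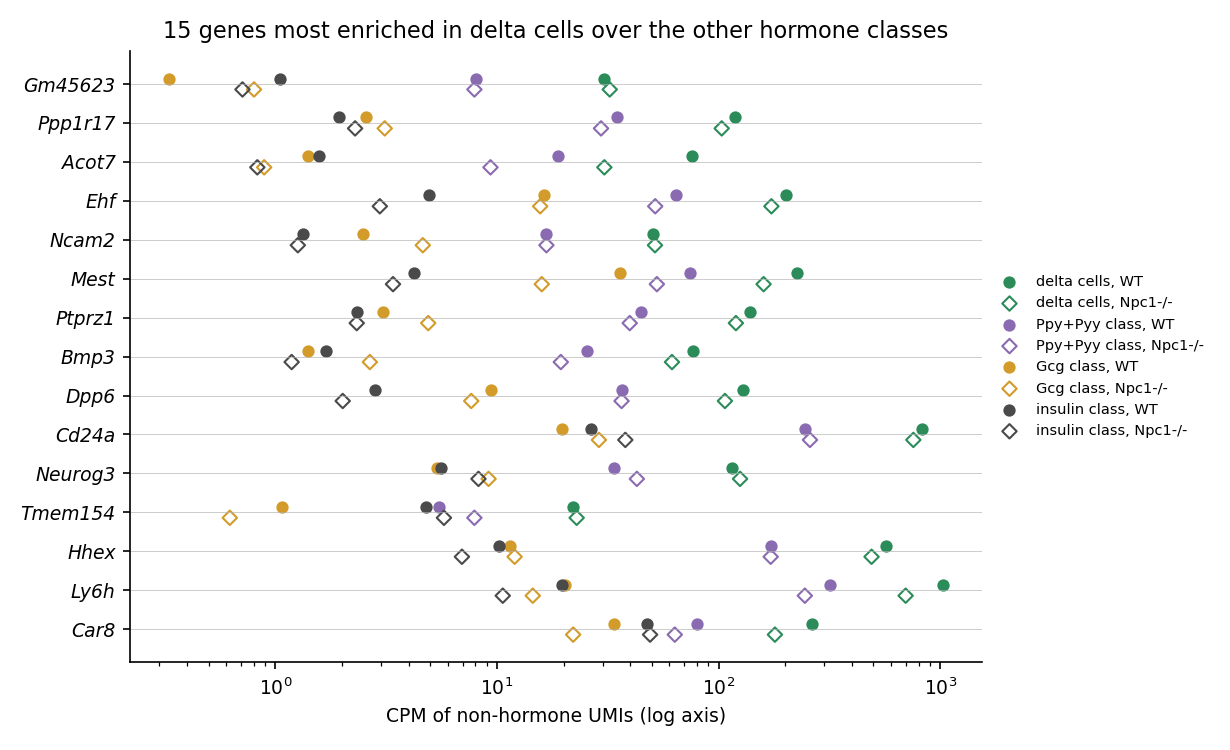
Level of the 15 most δ-enriched genes (x axis, CPM of non-hormone UMIs, log axis) in δ cells (green), the Ppy and Pyy class (purple), the glucagon class (yellow) and the insulin class (dark grey), filled circles for WT and open diamonds for Npc1-/-. For every gene both green symbols lie right of all others, with purple next for most genes.

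Between genotypes, 9561 genes that reached 10 CPM in WT or Npc1-/- were compared in δ cells, as the log2 ratio of Npc1-/- over WT relative to the median gene, which itself stood at 0.01. With 1 library per genotype a gene is counted as higher or lower past 1.5-fold, a rule of size and not a test. There were 503 higher genes, 5.26% of all, and 435 lower genes, 4.55%, together 9.81%. Most of them were low genes, for which few UMIs were counted. Among the 2258 genes from 10 to 20 CPM 12.2% were higher and 10.0% lower, and among the 783 genes above 200 CPM 0.766% and 0.894%. The share over all genes is thus too high a base for lists of abundant genes, and 0 past 1.5-fold in such a list is not read as a result about it. The interval left out 0 for 274 of the higher and 233 of the lower genes, out of the 9561 compared. Among so many genes, counting error alone makes some intervals leave out 0. Whether these counts exceed that number was not tested, so they are not read as support for the called genes.

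**Figure D3:**
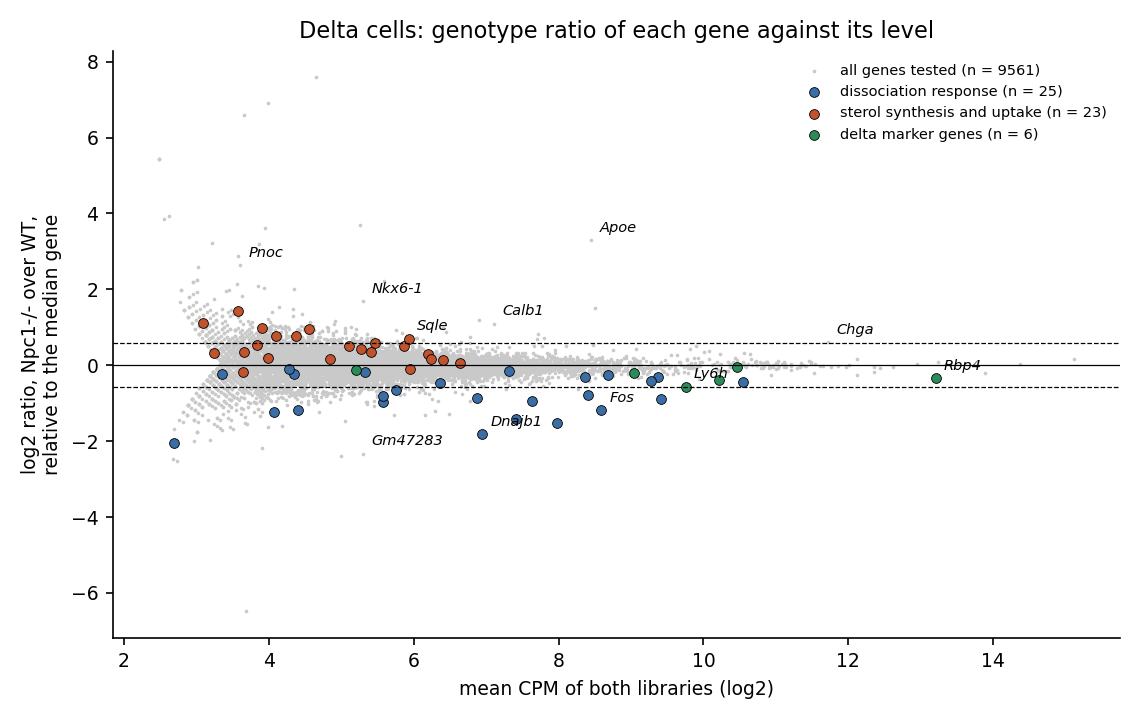
Each grey point is a gene measured in δ cells, placed by its mean level (x axis, log2 of CPM) and its log2 ratio of Npc1-/- over WT relative to the median gene (y axis). Dashed lines mark 1.5-fold. Sterol genes (orange) lie mostly above 0, dissociation response genes (blue) all below 0, and the 6 δ marker genes other than Sst (green) below 0.

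The 6 measured markers of the label all lay below the median gene, with a median of -0.28, and none passed 1.5-fold, against 9.81% of all genes. Most of them are abundant, and above 200 CPM only 0.766% of genes were higher and 0.894% lower. With only the cells at 20% Sst or more and under 5% insulin the median of the markers was -0.03. Ly6h was the furthest, at -0.57 (-0.67 to -0.46). Its level per cell was a median of 919 CPM in WT and 618 CPM in Npc1-/-, and the middle 50% of cells spanned 498 CPM to 1456 CPM and 199 CPM to 1057 CPM, so the cells overlapped widely. Rbp4 stood at -0.35 (-0.38 to -0.32), and at 0.06 (0.03 to 0.09) in the Ppy and Pyy class. Hhex was at -0.22 (-0.35 to -0.08), Fam159b at -0.04 (-0.12 to 0.04) and Ghsr at -0.13 (-0.65 to 0.38).

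A further list of 9 measured genes known from δ cells had 1 higher and 2 lower members, against 5.26% and 4.55% of all genes, and a median of -0.08. With the filter on the mean of both libraries 1 of 8 was higher and 1 lower, and the median was -0.03. Calb1 (calbindin, a calcium-binding protein, chromosome 4, 15881264 to 15908064) rose from 87.4 CPM to 188 CPM, at 1.10 (0.83 to 1.38). It was seen in 20.7% (15 to 27.3) of WT and 37.4% (29.3 to 46.0) of Npc1-/- δ cells at 5000 UMIs, and in 35.4% and 61.0% without the reduction. The insulin cells had 5.36% and 7.82% at 5000 UMIs and 19.8% and 25.9% without it. Calb1 was not particular to δ cells, since at 5000 UMIs 35.1% and 38.5% of glucagon cells and 37.5% and 41.5% of the Ppy and Pyy class held it. The ratio of Calb1 was 0.48 in insulin cells, 0.23 in glucagon cells and 0.16 in the Ppy and Pyy class. Spock3, an extracellular matrix proteoglycan, fell from 98.5 CPM to 53.4 CPM, at -0.88 (-1.27 to -0.52). The other lower gene, Pdyn (prodynorphin), was named after its values were seen, and had 24 and 6 UMIs. Hadh and Gap43 stood at -0.08 (-0.20 to 0.04) and -0.31 (-0.51 to -0.11).

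Of 20 endocrine transcription factors 1 was higher and 1 lower, against 5.26% and 4.55% of all genes, with a median of 0.08. Isl1, a LIM-homeobox factor of all islet endocrine cells, stood at 902 CPM and 801 CPM, at -0.18 (-0.28 to -0.07). Pax6 stood at 322 CPM and 359 CPM and Etv1 at 279 CPM and 283 CPM. Pdx1, shared by β and δ cells, stood at 149 CPM and 144 CPM, at -0.05 (-0.31 to 0.20). Nkx6-1, best known as a β cell factor, rose from 18.4 CPM to 60.5 CPM, at 1.69 (1.14 to 2.30), and 1 Npc1-/- cell held 16.5% of its 103 UMIs. At 5000 UMIs it was seen in 6.80% and 12.7% of δ cells, against 6.41% and 2.68% of endothelial-like cells, and without the reduction in 15.9% and 24.8%, against 10.4% and 5.31%. The WT level is thus not told apart from free RNA of insulin cells, where Nkx6-1 was at 465 CPM and 384 CPM, and the ratio is not read as a change within δ cells. Mafa, another β cell factor, was named after its values were seen, and had 32 and 9 UMIs, or 16.9 CPM and 5.28 CPM beside 14.5 CPM and 7.86 CPM in endothelial-like cells, which is likewise background. Pax4, a factor of endocrine development, had 0 UMIs in both libraries.

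Some prohormone processing and granule genes were high in both libraries, and others were low. Pcsk2, a prohormone convertase, stood at 2613 CPM and 2567 CPM, at -0.03 (-0.09 to 0.03). Pcsk1, a second convertase, fell from 144 CPM to 74.5 CPM, at -0.95 (-1.27 to -0.64). It was the only one of 11 processing genes past 1.5-fold, against 9.81% of all genes. It stood at 0.07 in the Ppy and Pyy class and -0.20 in insulin cells. In glucagon cells Pcsk1 was at 16.8 CPM and 9.61 CPM, but in 4.82% and 2.64% of them at 5000 UMIs against 7.02% and 3.12% of endothelial-like cells, so that this level is background and its ratio is not read. Among 12 granins and cargo genes 1 was higher and 0 lower, against 5.26% and 4.55% of all genes. The higher gene, Chga (chromogranin A, chromosome 12, 102554969 to 102565028), stood at 2667 CPM and 4090 CPM, at 0.61 (0.56 to 0.66). 1 Npc1-/- cell held 9.26% of its UMIs, and without the highest barcode of each library the ratio was 0.51, under 1.5-fold. Its ratio was 0.57 in insulin cells, 0.35 in glucagon cells and 0.77 in the Ppy and Pyy class. The related Chgb and Scg2 stood at -0.17 (-0.21 to -0.12) and -0.25 (-0.29 to -0.20). Iapp, the amylin gene known from β cells, was abundant in δ cells, at 33425 CPM and 37590 CPM, and stood at 0.16 (0.15 to 0.18). None of 20 exocytosis genes passed 1.5-fold, against 9.81% of all genes, a share that falls with level, and their median was 0.07. Cplx2, a complexin, stood at 359 CPM and 418 CPM.

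Receptors were mostly low. Of 31 listed, 14 reached 10 CPM, and 1 was higher and 2 lower, against 5.26% and 4.55% of all genes, with a median of -0.07. Under the processing alternatives the median ranged from -0.13 to 0.28, with 0 to 3 higher and 0 to 8 lower, so its direction is not settled. Ffar4, a receptor for long-chain fatty acids, was the highest in WT at 193 CPM, with 163 CPM in Npc1-/-. Ramp1, the accessory protein of the CGRP receptor, rose from 160 CPM to 258 CPM, at 0.68 (0.47 to 0.90), and stood at 0.66 in the Ppy and Pyy class. Sstr1, a somatostatin receptor, fell from 69 to 26 UMIs, at -1.24 (-1.97 to -0.59). Adra2a, the inhibitory adrenergic receptor, fell from 62 to 30 UMIs, at -0.88 (-1.58 to -0.25). Sstr3, the somatostatin receptor with the most UMIs, stood at 68.5 CPM and 59.9 CPM. The leptin receptor Lepr had 1 and 0 UMIs, and the cholecystokinin receptors Cckar and Cckbr had 0 in both, which allows up to 3 counts each.

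Of 23 ion channel genes 0 were higher and 1 was lower, against 5.26% and 4.55% of all genes, and the median was -0.05. The subunits of the ATP-sensitive potassium channel, Abcc8 and Kcnj11, stood at 693 CPM and 663 CPM, and at 73.7 CPM and 65.7 CPM. The potassium channel Kcnk16 stood at 243 CPM and 229 CPM. Scn9a, a voltage-gated sodium channel, fell from 106 CPM to 55.2 CPM, at -0.94 (-1.32 to -0.59). Cacna1h, a T-type calcium channel, was at 44.8 CPM and 43.4 CPM, and at 0.927 CPM in WT insulin cells. In glucose handling, the glucose transporter gene Slc2a2 was at 15.3 CPM and 11.7 CPM, against 584 CPM in WT insulin cells, and beside a background of 13.1 CPM and 5.54 CPM in endothelial-like cells. Of 20 such genes 1 was lower, G6pc2 at 22.6 CPM and 14.1 CPM (13.4 CPM and 8.93 CPM in endothelial-like cells), and 1 higher, Arrdc4 with 18 and 28 UMIs, the latter named after its values were seen, again against 4.55% and 5.26% of all genes.

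Sterol synthesis and uptake was the list with the most higher members. Of its 23 measured genes 8 were higher and 0 lower, against 5.26% and 4.55% of all genes. Among those at 50 CPM or more 2 were higher, against 1.09% of all genes at that limit. Some of the 23 passed the filter on low values only through Npc1-/-. With a filter on the mean of both libraries 7 of 21 were higher and 0 lower, against 4.17% and 3.65% of all genes. Of the 23, 21 lay above the median gene, and the median was 0.44. Sqle, squalene epoxidase, rose from 46.4 CPM to 75.7 CPM, at 0.70 (0.30 to 1.11). Hmgcs1, HMG-CoA synthase, rose from 35.3 CPM to 53.4 CPM, at 0.59 (0.12 to 1.07), barely past 1.5-fold. Insig1, which holds SREBP precursors in the ER and is itself a target of SREBP, rose from 15.8 CPM to 31.1 CPM, at 0.96 (0.30 to 1.67). These were small numbers of molecules, with 30 and 53 UMIs for Insig1. Sc5d, an enzyme of the last steps, stood at 0.78 (0.08 to 1.51). A further 3 higher genes were below 20 CPM in both libraries.

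The list was also above the median gene in the other hormone classes, at 0.24 in insulin cells, 0.36 in glucagon cells and 0.41 in the Ppy and Pyy class, and at 0.00 in endothelial-like cells. Whether these medians differ was not tested. The promoters of Hmgcs1 and Insig1 are shown because both genes rose and because CCAAT boxes, bound by NF-Y, are known beside SREBP sites. Both run 250 bases to the RefSeq start on the plus strand, Hmgcs1 at chr13:119690101-119690350 and Insig1 at chr5:28071162-28071411 (GRCm38.p6). Capitals mark CCAAT, printed here as ATTGG where it is on the other strand, and in Hmgcs1 also TCACCCCAC, a match to TCACNCCAC, a form of the sterol regulatory element.
Hmgcs1: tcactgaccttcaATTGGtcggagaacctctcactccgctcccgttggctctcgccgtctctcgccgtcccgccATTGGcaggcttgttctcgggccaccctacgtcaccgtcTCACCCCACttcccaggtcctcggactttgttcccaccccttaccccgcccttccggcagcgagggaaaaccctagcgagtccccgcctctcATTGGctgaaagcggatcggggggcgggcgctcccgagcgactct
Insig1: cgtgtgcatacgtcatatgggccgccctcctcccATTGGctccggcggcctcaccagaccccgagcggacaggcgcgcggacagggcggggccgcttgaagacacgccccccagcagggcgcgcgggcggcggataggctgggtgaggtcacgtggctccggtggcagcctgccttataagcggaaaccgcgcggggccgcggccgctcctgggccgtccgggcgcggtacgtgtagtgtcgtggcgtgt
On either strand, CCAAT was present in 34.5% of the 27025 promoters, in 36.3% of the 7554 of genes measured in δ cells, and in 13 of the 16 available for the sterol list. TCACNCCAC was present in 1.04% of all promoters and in 1 of these 16. A match is only a match of letters, and binding was not measured.

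Cholesterol export and storage had 1 of 12 genes higher and 2 lower, against 5.26% and 4.55% of all genes, and a median of -0.11. Npc2, the soluble lysosomal partner of NPC1, stood at 227 CPM and 322 CPM, at 0.50 (0.31 to 0.68), under 1.5-fold. Abcg1, a cholesterol exporter, fell from 31.1 CPM to 17.6 CPM, at -0.81 (-1.51 to -0.17), and the other lower gene was Npc1 at -0.93 (-2.03 to 0.04). Abca1 stood at 65.3 CPM and 61.6 CPM. The higher gene was Apoe, at 63.7 CPM and 634 CPM, but 94.2% of its 1081 Npc1-/- UMIs came from 1 barcode.

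Lysosomal genes had 4 of 47 higher and 1 lower, against 5.26% and 4.55% of all genes, and a median of 0.08. With the filter on the mean of both libraries 3 of 45 were higher and 0 lower, against 4.17% and 3.65% of all genes. Without the highest barcode of each gene 2 were higher and 2 lower, against 5.39% and 5.26%. Tpp1, a lysosomal peptidase, rose from 20.5 CPM to 33.5 CPM, at 0.69 (0.08 to 1.32). Ctss and Cd68, also higher, are macrophage genes with 0 and 43 and with 1 and 19 UMIs, Cd68 being named after its values were seen, as was Gla, the lower gene, with 22 and 13. Asah1, acid ceramidase, stood at 88 CPM and 132 CPM, at 0.58 (0.29 to 0.88), just under 1.5-fold. Cd63, the most abundant of the list, stood at 720 CPM and 871 CPM, at 0.27 (0.16 to 0.38). Among 33 autophagy and mitophagy genes 1 was higher and 0 lower, against 5.26% and 4.55% of all genes, and the median was 0.02. The higher gene was Opa1, a fusion protein of the inner mitochondrial membrane, from 32.1 CPM to 52.8 CPM, at 0.71 (0.23 to 1.20).

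Respiratory chain genes did not pass 1.5-fold. The 75 nuclear genes had a median of 0.02 and the 13 mitochondrial genes a median of 0.04. In both, 0 were higher and 0 lower, against 5.26% and 4.55% of all genes. Among all genes from 50 to 200 CPM the shares were 1.11% and 1.81%, and above 200 CPM 0.766% and 0.894%. Cox4i1 stood at 976 CPM and 948 CPM, and mt-Co3 at 10741 CPM and 10836 CPM. In insulin cells the nuclear list had a median of -0.11, with 57 of 75 genes below the median gene, while in δ cells 32 of 75 were below it. Whether the classes differ was not tested.

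Of 29 genes of protein folding and translocation in the ER 0 passed 1.5-fold, against 9.81% of all genes. Among all genes from 50 to 200 CPM only 1.11% were higher and 1.81% lower, and above 200 CPM 0.766% and 0.894%. Many of the 29 were this abundant, so the 0 is not read as a result about them. Of the 29, 26 lay below the median gene, and the median was -0.20. Hspa5, the chaperone BiP, stood at 1100 CPM and 860 CPM, at -0.36 (-0.46 to -0.26). Pdia4, a disulfide isomerase, stood at 155 CPM and 115 CPM, at -0.44 (-0.71 to -0.17). In insulin cells the list had a median of -0.34, with 27 of the 29 below the median gene. In glucagon cells and the Ppy and Pyy class the medians were -0.09 and -0.07, with 23 and 21 below it. None of 12 genes of the integrated stress response passed 1.5-fold with the cells and the scaling used throughout, against 9.81% of all genes. With only the cells at 20% Sst or more 8 were lower, against 14.7% of all genes in these cells. Atf4, the main transcription factor of this response, stood at 125 CPM and 83.9 CPM, at -0.58 (-0.89 to -0.28). Of 16 apoptosis genes 0 were higher and 2 lower, against 5.26% and 4.55% of all genes, and the median was -0.03. With the filter on the mean of both libraries 0 of 15 were higher and 1 lower, against 4.17% and 3.65% of all genes, and the median was 0.01. Bcl2l1 fell from 33.7 CPM to 18.8 CPM, at -0.84 (-1.51 to -0.22), and Bbc3, named after its values were seen, had 21 and 9 UMIs, while the effector gene Bax stood at 160 CPM and 173 CPM.

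Among the 21 gene lists other than markers of other cells, the median furthest from 0 was that of genes known to respond to tissue dissociation, the immediate early and heat shock genes. Of 25 measured, 14 were lower and 0 higher, against 4.55% and 5.26% of all genes, all 25 lay below the median gene and the median was -0.77. Fos fell from 534 CPM to 235 CPM, at -1.19 (-1.36 to -1.02), and Jun from 886 CPM to 483 CPM, at -0.88. Hspa1a, the inducible HSP70, fell from 376 CPM to 130 CPM, at -1.53 (-1.76 to -1.32), and its cochaperone Dnajb1 from 191 CPM to 54.6 CPM, at -1.81 (-2.16 to -1.48). The list was also below the median gene in insulin cells (-1.09), glucagon cells (-0.98), the Ppy and Pyy class (-0.86) and endothelial-like cells (-0.33), so it was not confined to δ cells. With 1 preparation per genotype, handling and genotype cannot be told apart.

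**Figure D4:**
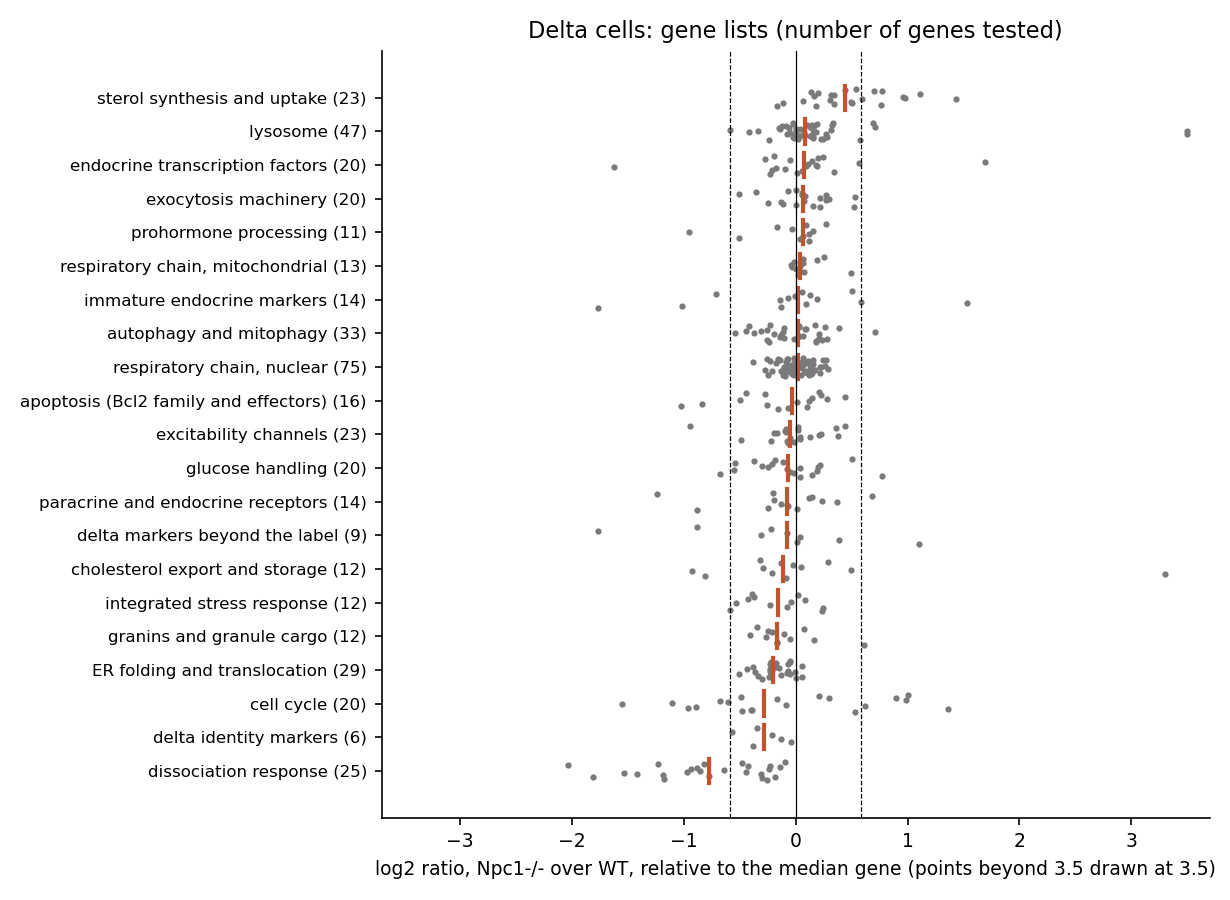
Each point is a gene of a list measured in δ cells, placed by its log2 ratio of Npc1-/- over WT relative to the median gene (x axis), with points beyond 3.5 drawn at 3.5. Orange bars are list medians, numbers in brackets the genes measured, and dashed lines 1.5-fold. Of the lists shown, sterol synthesis and uptake has the highest median, 0.44, and the dissociation response the lowest, -0.77.

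Over all genes except the listed markers of other cells, the largest ratios among genes that reached 20 CPM were read together with the share of UMIs from a single cell. Of the 10 highest, 6 drew a large part of their Npc1-/- UMIs from 1 barcode, namely Ctss (100%), Apoe (94.2%), Hist1h2ap (78.7%), Hist1h2ae (57.1%), Tm4sf1 (44.4%) and Gng11 (38.9%), and Tm4sf1 turned to -0.51 without barcodes that carried genes of other cells. The remaining 4 were spread over cells, among them Pnoc, Mt2 and Fgl2. These 3 were below 10 CPM in WT and passed the limit of 20 CPM only through Npc1-/-, so they had to differ and their values are a description. Pnoc, the precursor of nociceptin, had 6 and 36 UMIs, at 2.64 (1.47 to 4.27), and was seen in 1.11% (0.134 to 3.93) of WT and 7.50% (3.72 to 13.2) of Npc1-/- δ cells at 5000 UMIs, against 0.0382% and 0.135% of insulin cells, and in 3.17% and 19.1% without the reduction, against 0.223% and 0.679%. Mt2, a metallothionein, stood at 7.90 CPM and 32.9 CPM, at 2.02 (1.21 to 2.98). Fgl2, a fibrinogen-like protein, had 17 and 41 UMIs, at 1.40 (0.57 to 2.33).

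The 10 lowest held 3 dissociation genes, Dnajb1, Hspa1a and Fosb, and the unnamed gene Gm47283, which fell from 65.8 CPM to 12.9 CPM and was also lower in insulin (-2.04), glucagon (-2.20) and Ppy and Pyy cells (-1.92). Gm47283 is annotated on chromosome Y, 90784738 to 90816464 (GRCm38), and both pools were of female mice. Whether chromosome X carries the same sequence was not looked up, so the position alone is not read as a conflict. Counted for this reason after its position was seen, the Y genes Ddx3y, Uty, Eif2s3y and Kdm5d together had 1 UMI in each library over all kept barcodes, and Xist had 2855 and 2607 UMIs in δ cells. Where the Gm47283 UMIs came from was not tested. Acot7 is one of the 15 δ-enriched genes above, and fell at -1.31 (-1.81 to -0.85). Cbln4, a secreted synaptic organizer of the cerebellin family, fell from 102 CPM to 41.1 CPM, at -1.31 (-1.74 to -0.92). Sftpd, the surfactant collectin, fell from 49.0 CPM to 17.6 CPM, at -1.47 (-2.13 to -0.87). All 3 were lower outside δ cells, at 1.61 CPM or less in WT insulin cells and at 18.8 CPM for Acot7, 39.2 CPM for Cbln4 and 12.6 CPM for Sftpd in the WT Ppy and Pyy class. Col25a1, a membrane collagen, fell from 30.6 CPM to 12.3 CPM, at -1.29 (-2.11 to -0.57), Ttyh1 from 24.2 CPM to 7.63 CPM, and Taf13, a subunit of TFIID, from 21.1 CPM to 8.22 CPM. Gm47283, Sftpd, Col25a1, Ttyh1 and Taf13 were below 20 CPM in Npc1-/- and passed that limit only through WT. The limit thus favoured a fall in them, and their values are a description.

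**Figure D5:**
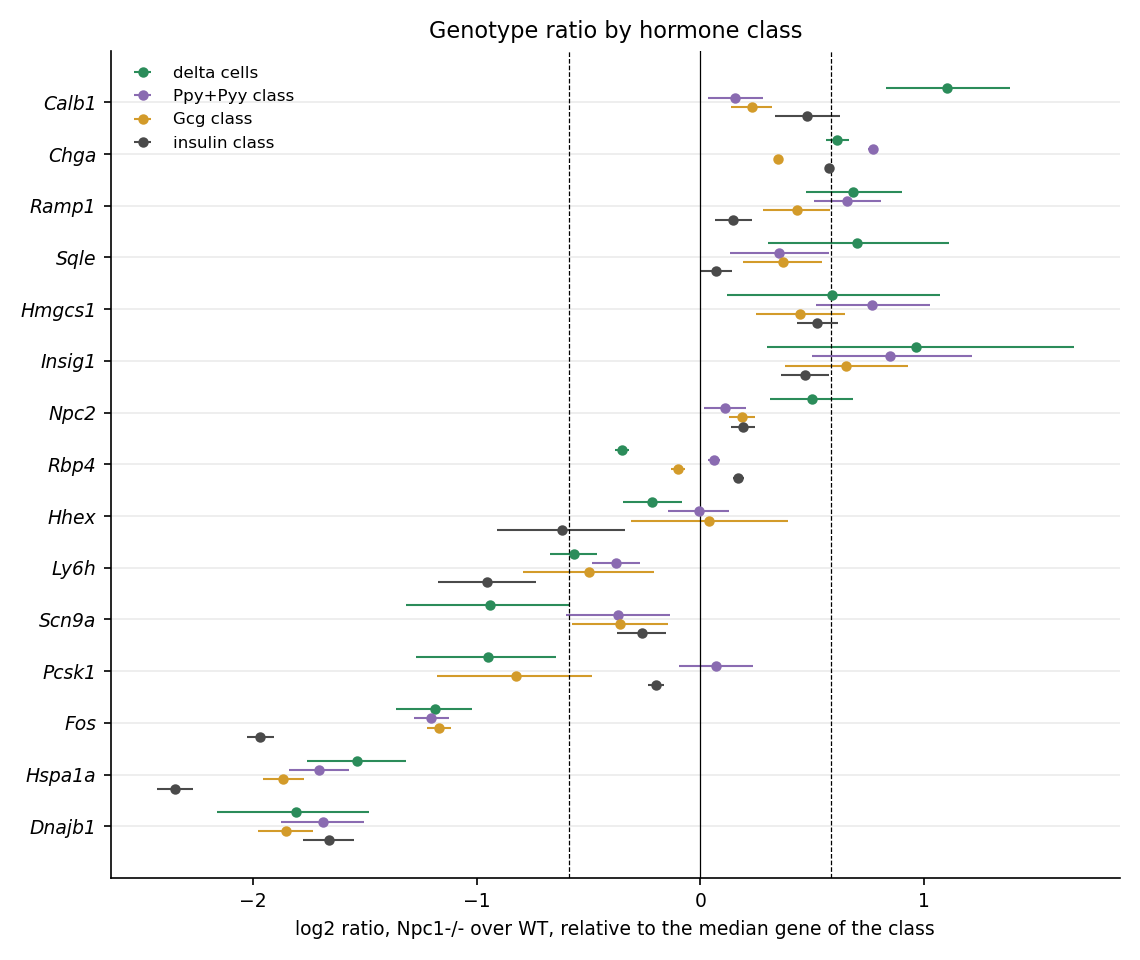
Log2 ratio of Npc1-/- over WT relative to the median gene of each class (x axis) for 15 genes described in the text, with 95% intervals for counting error, in δ cells (green), the Ppy and Pyy class (purple), the glucagon class (yellow) and the insulin class (dark grey). Fos, Hspa1a and Dnajb1 are below 0 in all 4 classes and Chga above 0 in all 4, whereas Calb1 is past 1.5-fold (dashed lines) in δ cells alone. Pcsk1 in the glucagon class is at background.

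δ cells also varied among themselves. With 169 WT and 135 Npc1-/- cells reduced to 10000 UMIs, the variance over the mean (Fano factor) of each of 6505 genes was set against the 100 genes nearest in mean, and 59 genes were at least 2-fold above these in both libraries. The 12 highest fell into 3 kinds. Genes of other cell types were confined to few cells, such as Mgp, Sparc and Col4a1, and the top 5% of cells held all 100% of the Mgp UMIs. Genes of dividing cells were another kind (Stmn1, Ube2c, Hmgb2 and Cenpa). The rest were found in most cells, namely Iapp, Malat1, Rbp4, the nuclear or ribosomal transcript Gm42418 and the elastase gene Cela1. Iapp, Malat1, Rbp4 and Gm42418 were all set against the same block of the most abundant genes, not against genes of like mean. Chga, at a mean of 18.9 UMIs in WT, shared this block with Iapp, at 229. The part of level in the rank of such abundant genes was not tested. At 10000 UMIs, 65.7% of the WT and 68.9% of the Npc1-/- δ cells held Cela1, with a median of 1 UMI and up to 24 and 32 UMIs in a cell. At 5000 UMIs it was found in 52.1% and 54.2% of δ cells, against 2.01% and 2.68% of insulin cells, and without any reduction in 69.3% and 75.9%, against 6.86% and 10.2%. The Ppy and Pyy class may hold it too, since 15 acinar genes that include Cela1 summed there to 256 CPM in WT and 374 CPM in Npc1-/-.

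Few δ cells were cycling. Over 8 proliferation genes, such as Mki67 and Top2a, 10 WT cells (5.29%, 2.57 to 9.51) and 3 Npc1-/- cells (2.13%, 0.441 to 6.09) held 3 or more UMIs, a count that was not adjusted for depth. The shares were 6.75% and 5.66% in insulin cells and 11.9% and 12.4% in glucagon cells. Of 20 cell cycle genes 5 were higher and 6 lower, against 5.26% and 4.55% of all genes, and without the highest barcode of each gene 3 were higher and 8 lower. Of 14 genes known from immature endocrine cells 1 was higher, Cdkn1c with 7 and 19 UMIs, and 3 lower, Rgs4 at -0.72 (-1.11 to -0.33) and Cck and Cd79a, with 24 and 6 and with 23 and 10 UMIs. Cdkn1c, Cck and Cd79a were named after their values were seen. Of all genes 5.26% were higher and 4.55% lower, and with the filter on the mean of both libraries 0 of 11 of these genes were higher and 1 lower.

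Marker genes of other cell types were mostly low in δ cells. Summed over 8 endothelial markers the sum was 60 CPM in WT and 64.0 CPM in Npc1-/-, led by Egfl7, against 15679 CPM and 16819 CPM in endothelial-like cells, and Cdh5 was at 0 in WT. For 10 stellate and fibroblast genes it was 269 CPM, led by Sparc, and 177 CPM, led by Rgs5, with Col1a1, Dcn and Lum at 0 in Npc1-/-. For 9 macrophage genes it was 256 CPM and 415 CPM, of which C1qa alone made 241 CPM and 259 CPM. C1qa was spread over δ cells, in 54.1% and 50% of them at 5000 UMIs against 0.890% and 0.877% of endothelial-like cells, and also in 11.1% and 17.8% of insulin cells, 21.8% and 25.1% of glucagon cells and 25.8% and 27.5% of the Ppy and Pyy class. Without the reduction it was in 82.5% and 83.7% of δ cells, against 1.81% and 1.55% of endothelial-like cells. A single barcode held 19.9% of its Npc1-/- UMIs. C1qb, C1qc, Csf1r and Adgre1 were at 0 in WT but not in Npc1-/-, where 4 of 5 measured genes were higher, against 5.26% of all genes, 3 of them with at most 4 UMIs in WT. In this library all of Ctss, Tyrobp and C1qc, 98.8% of C1qb and most of Apoe came from a single barcode each.

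For 15 acinar genes the sums were 560 CPM and 660 CPM, of which Cela1 alone made 506 CPM and 543 CPM, and 4 of the 5 measured were higher, against 5.26% of all genes. These 4 had 6 to 30 UMIs in WT and 19 to 56 in Npc1-/-, and the most abundant of them, Ctrb1, was seen at 5000 UMIs in 5.62% and 11% of δ cells against 11.6% and 14.8% of endothelial-like cells, and without the reduction in 14.3% and 31.9% against 19.7% and 27.7%, so that these counts are read as background. For 8 duct genes they were 1740 CPM and 1481 CPM, led by Clu, with Krt19 at 0 in both. For 7 Schwann genes they were 49.5 CPM and 29.3 CPM, with Sox10, S100b, Cdh19 and Foxd3 at 0 in Npc1-/-. For 10 B and T cell genes they were 6.85 CPM and 4.70 CPM, led by Igkc and Ighm, for 5 erythroid genes 22.7 CPM and 16.4 CPM, led by Hbb-bs, and all 5 neutrophil genes were at 0.

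Among the endocrine lists, 9 α cell genes summed to 1667 CPM and 1920 CPM, led by Tmem27. Ttr stood at 188 CPM and 536 CPM, but 54.3% of its Npc1-/- UMIs were in 1 barcode, and without the highest barcode of each library it stood at 172 CPM and 246 CPM. The highest Gcg share of a δ cell was 3.86% in WT and 9.40% in Npc1-/-. For 11 β cell genes the sums were 33882 CPM and 38039 CPM, nearly all Iapp, with Adcyap1 at 0 in both, and for 7 genes of Ppy and ghrelin cells 1449 CPM and 1491 CPM, led by Tspan8, with Ghrl from 28 to 6 UMIs. The part of these transcripts in the genotype ratios was not tested beyond leaving out 7 WT and 8 Npc1-/- barcodes that carried such genes, after which the median was 0.41 for the sterol list and -0.67 for the dissociation list.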

How the data were processed

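Islet cells of 1 WT and 1 Npc1-/- library were analysed. Matrices of unnormalized UMI counts were deposited, made with Cell Ranger (3.1.0, mm10, per the submitters' processing notes, which also name Seurat 4.0.3) and limited by it to called barcodes. The labels name 10x reagents of version v3 and the paper's methods another version. The study's filters on barcodes were applied here, and the limits on Sst and insulin added. No doublets were removed for the main values, since the study names no caller. Scrublet (in scanpy 1.11.5) marked 65 WT (1.40%) and 40 Npc1-/- (0.937%) of the kept barcodes, with 0 and 1 among δ cells.

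The members and gene lists were chosen with earlier results of these data known. Comparison classes followed the same hormone rule. Counts were summed per class and library, and log2 ratios used CPM of non-hormone UMIs with 0.5 counts added. Intervals are conditional binomial for ratios, Clopper-Pearson for shares and exact Poisson for levels, at 95%. Shares at 5000 UMIs are the expected shares when UMIs are drawn without replacement. Genes were named as label markers, as the 10 highest and 10 lowest ratios at 20 CPM or more with 1 direction under every alternative other than those chosen after seeing the data (genes of the lists for other cells left out), the 15 most δ-enriched, the 12 most variable, and within lists by level or past 1.5-fold. Of the lists' genes, Amy2b was not matched, and a few genes that the rule names or that lists count are not reported here by name. Positions are those of GENCODE vM21, promoters those of RefSeq. The software was scipy 1.17.1, numpy 2.4.6, matplotlib 3.10.9 and pandas 2.3.3 under Python 3.11.15. The genotype ratio and its interval were tested on simulated sums, which hold no spread between cells. Thinning was tested on counts of WT δ cells, and the other steps were not tested in this way. Alternatives changed membership, cell filters, doublets, cycling cells, scaling, depth and the filter on low values. Of these, leaving out mixed barcodes (those with 5 or more UMIs of defining genes of endothelial, stellate, Schwann or macrophage cells, at least 1% Gcg or at least 2.5% insulin), the barcodes with at least 10% Sst under any leading hormone, the Ppy and Pyy class without Sst-rich barcodes, each gene without its highest barcode and the filter on the mean of both libraries were chosen after seeing the data.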

Additional observations from a re-analysis of the deposited data

Results flagged for a closer look

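In 11 of the 19432 pairs of a gene and another hormone class in which the gene reached 20 CPM, the δ cells stood past 1.5-fold in one direction between genotypes and the other class past 1.5-fold in the opposite direction. With 1 library per genotype the difference was not tested, and no explanation is weighed. The values of 10 of these pairs follow, and 3 of the genes were spread over δ cells. Cd44, a hyaluronan receptor, had a log2 ratio of -0.75 in δ cells and 0.70 in insulin cells. Retreg1, an ER-phagy receptor, had -0.88 in δ cells and 0.82 in insulin cells. Ier5, an immediate early response gene, had 0.83 in δ cells and -0.61 in the Ppy and Pyy class.

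The other 7 drew at least 28.3% of their UMIs of the Npc1-/- library from a single δ cell. Tm4sf1 stood at 3.20 in δ cells against -0.60 in glucagon cells, with 44.4% of its Npc1-/- UMIs in 1 cell, and Apoe at 3.30 against -1.57 in the Ppy and Pyy class, with 94.2%. The remaining 5 are genes of dividing cells. Spc25 stood at 0.71 against -0.60 in insulin cells. Against the Ppy and Pyy class, Ube2c stood at 1.01 and -0.91, Cdk1 at 1.36 and -0.67, Pbk at 2.10 and -0.80, and Top2a at 0.90 and -0.64. Of the Npc1-/- UMIs of Ube2c 76.3% and of Pbk 57.5% were in 1 cell.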

How the results depend on the processing

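The count of genes past 1.5-fold depended on the cells taken and on the filter on low values. It was 1392 higher and 1412 lower with the 44 WT and 37 Npc1-/- cells at 20% Sst or more and under 5% insulin, 297 and 269 with all barcodes at 10% Sst or more, 41 and 59 at 50 CPM or more, and 2570 and 2540 without a filter. Thinned to 10000 UMIs per cell, 750 genes were higher and 764 lower. The δ-enriched genes were 124 instead of 74 with the Sst-rich barcodes left out of the Ppy and Pyy class, and the variable genes 24 instead of 59 at 5000 UMIs. Marker genes of cell types other than endocrine cells summed to 2965 CPM in WT, and to 2770 CPM with doublets removed and 2692 CPM without mixed barcodes. In Npc1-/- they summed to 2848 CPM, and to 2686 CPM with doublets removed, 2684 CPM at 20% Sst and 2484 CPM without mixed barcodes.

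Over 18 alternatives the median of the sterol list ranged from 0.24 to 0.59 and that of the dissociation list from -0.81 to -0.63, while that of the cell cycle list ranged from -1.06 to 0.30. Counts within lists varied more. The sterol list had 2 to 12 higher and 0 to 1 lower genes, and the dissociation list 11 to 15 lower. The ion channels had 0 to 4 higher and 1 to 3 lower. The integrated stress response had 0 to 3 higher and 0 to 8 lower, with medians from -0.68 to -0.07. Of all genes 1.09% were higher and 1.57% lower at 50 CPM or more, and 16.0% and 15.8% without a filter. The median of the label markers ranged from -0.35 to -0.03. Of 378 list medians under the alternatives 19 moved. Of the values of 239 named genes 3 reversed, Tm4sf1 to -0.51 without mixed barcodes, and Npc1 to 0.76 and Nr4a1 to 0.11 at 20% Sst, and 139 moved. The cause was not tested. No paired analysis was possible because there was 1 library per genotype, which also leaves no replicate to leave out. For genes under 20 CPM the number of molecules limits every ratio.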
